A study of Mus musculus with 10 samples.

Results

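The genes described here are 10 regulators of the G1 phase of the cell cycle: the D-type cyclins Ccnd1, Ccnd2 and Ccnd3, their kinases Cdk4 and Cdk6, the E-type cyclins Ccne1 and Ccne2, the CDK inhibitors Cdkn1a and Cdkn1b, and the pocket protein gene Rb1. They were chosen by name, and all 10 were found among the 46983 gene identifiers of the deposited count table. Positions are on GRCm38 (mm10), from GENCODE M21. RNA was sequenced from CD31+ cells isolated with magnetic beads from hearts of male wild-type C57BL/6J mice. The mice were 8 weeks old when they were assigned to a control diet with 11.6% of its energy as fat (5 mice) or a ketogenic diet with 89.5% (5 mice), and were fed these diets for 14 days. No gene was altered and no drug was given, and the 10 libraries were treated as 1 mouse each, as the labels number them. A bead isolation with CD31 enriches ECs but also takes any other cell that carries CD31.

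In background, growth signals induce D-type cyclins, which bind CDK4 or CDK6 and phosphorylate the retinoblastoma protein RB1. RB1 then releases E2F transcription factors, which switch on the E-type cyclins and the genes of DNA replication, and cyclin E with CDK2 completes the step into S phase. The inhibitors p21 (Cdkn1a) and p27 (Cdkn1b) bind cyclin-CDK complexes and hold cells in G1. Most ECs of the adult heart are out of the cell cycle.

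None of the 10 genes passed an adjusted p-value of 0.05 between the diets, with 1 gene, Cdkn1a, at an unadjusted p-value under 0.05. Cdkn1a had a log2 fold change of −0.11 on the ketogenic diet, a difference of −7.49%, with 4 of 5 ketogenic mice below every control mouse. Its counts lay near a ceiling of the files, described below, and the median library total was higher on the ketogenic diet. Ccnd1 stood 13.3% and Ccne2 15.9% higher in the fit, with intervals that included no difference. Cdk4 and Rb1 lay closest to 0. Of the 15949 tested genes, 1.34% passed the adjusted threshold (0.809% higher and 0.527% lower on the ketogenic diet). An unadjusted p-value under 0.05 was found for 17.8% (8.57% higher and 9.26% lower). The counts of no member separated the diets completely, which 4.34% of tested genes did. With DESeq2's Wald test, 0 of the 10 genes passed the adjusted threshold and 2, Cdkn1a and Ccnd1, had an unadjusted p-value under 0.05. In that fit 5.61% of the 14595 genes with an adjusted p-value passed, and 9.75% of the 32361 genes with a p-value, many of them with few reads, had an unadjusted one under 0.05.

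The libraries held from 10885154 to 12206734 reads assigned to genes on the control diet (median 11285659). On the ketogenic diet they held from 11108020 to 12710861 (median 11837379). Normalized counts given here are counts divided by the TMM-scaled library size and multiplied by the mean of these sizes, so that they read as numbers of reads in a typical library. Log2 fold changes are ketogenic minus control, from edgeR's quasi-likelihood fit over all tested genes, with Benjamini-Hochberg adjustment over those genes. The exact permutation test named below was two-sided, compared mean log2 CPM over every grouping of the mice into 5 and 5, and can give no p-value below 0.00794. The EC markers Pecam1, Cdh5, Kdr, Tek, Tie1, Egfl7, Emcn and Erg summed to between 3894 and 4383 CPM, with both diets in that range. The 7 mural cell markers summed to between 2398 and 2560 CPM on the control diet and between 2332 and 2590 on the ketogenic diet. The 7 fibroblast markers summed to between 591 and 654 and to between 581 and 687 in the same order. The 6 erythroid markers summed to between 266 and 320 and to between 297 and 311. No mural, fibroblast or erythroid marker passed the adjusted threshold. The 8 cardiomyocyte markers summed to between 415 and 558 CPM on the control diet and between 509 and 754 on the ketogenic diet, and all 8 had log2 fold changes above 0, none past the adjusted threshold. The 6 lymphocyte markers summed to between 198 and 288 and to between 149.5 and 194 in the same order, with 1 of them lower past the adjusted threshold, and the 6 macrophage markers to between 129 and 506 and between 122 and 257, with none past it. The 6 markers of dividing cells, Mki67, Top2a, Ccnb1, Cdk1, Aurkb and Plk1, summed to between 49.3 and 121 on the control diet and between 99.9 and 186 on the ketogenic diet, and all 6 had log2 fold changes above 0, none past the adjusted threshold. No marker in any of these lists was at 0 in all mice. The part of these cells in the values below was not tested, apart from a fit with the mean z-score of the cardiomyocyte markers as a covariate, given where it matters. This score ran from −1.43 to 0.16 on the control diet and from −0.46 to 1.43 on the ketogenic diet. The fit thus cannot fully separate the score from the diet. With the score, 21 of all tested genes passed the adjusted threshold, against 213 without it. In that fit Cdkn1a had a log2 fold change of −0.10 (SE 0.055, unadjusted p = 0.0905, adjusted p = 0.513, edgeR) and Ccnd1 one of 0.34. In such bulk samples, fewer cells of a type and less RNA per cell cannot be told apart.

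Upstream sequence was held for 6 of the 10 genes in the RefSeq promoter table of GRCm38.p6, and the windows of Cdk4, whose counts varied least, and of Cdkn1a, with the smallest p-value of the 10, are shown. Each is the 250 bases before an annotated start, 5′ to 3′. In the Cdk4 window, at chr10:127063285-127063534 on the plus strand, capitals mark CACGTG, the E-box letters that MYC and related factors can bind. Cdkn1a has 2 annotated starts, at the end of chr17:29090729-29090978 and of chr17:29093519-29093768, both on the plus strand. In its upstream window capitals mark a pair of CATG cores, with the bases between them, spaced as in a classic p53 response element, and in its downstream window GGGCGG, the GC box.
Cdk4: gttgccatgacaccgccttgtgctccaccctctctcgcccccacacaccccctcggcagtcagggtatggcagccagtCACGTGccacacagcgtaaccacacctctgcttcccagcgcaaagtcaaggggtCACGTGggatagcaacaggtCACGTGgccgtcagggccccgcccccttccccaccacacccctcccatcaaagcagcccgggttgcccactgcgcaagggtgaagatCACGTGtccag
Cdkn1a upstream start: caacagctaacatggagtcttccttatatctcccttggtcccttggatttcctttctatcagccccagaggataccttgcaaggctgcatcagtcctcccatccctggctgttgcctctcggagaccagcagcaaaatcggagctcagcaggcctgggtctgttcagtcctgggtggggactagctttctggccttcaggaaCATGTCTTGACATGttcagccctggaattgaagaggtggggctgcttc
Cdkn1a downstream start: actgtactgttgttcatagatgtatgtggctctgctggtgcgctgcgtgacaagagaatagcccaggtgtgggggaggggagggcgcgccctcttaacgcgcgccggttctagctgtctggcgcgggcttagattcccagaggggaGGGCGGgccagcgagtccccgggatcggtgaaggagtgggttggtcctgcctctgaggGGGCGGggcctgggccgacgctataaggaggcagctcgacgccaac

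The Cdk4 window held CACGTG 4 times, at 172, 118, 98 and 11 bases before the start, and at least 4 were held by 0.0213% of the 32851 windows in the table. At least 1 CACGTG was held by 6.02% of windows, the Cdk6 window with 1 among them. The upstream Cdkn1a window held 1 pair of CATG cores, 48 bases before the start, which 0.49% of all windows had, and the other member windows had none. GGGCGG, searched on both strands, was present 4 times in the Ccne1 window, 2 times in the downstream Cdkn1a window and in a Ccnd3 window, and 1 time in the other Ccnd3, the Cdk4 and the Cdkn1b windows. At least 2 copies were held by 16.7% of all windows. The E2F letters TTTCCCGC, TTTCGCGC, TTTGCCGC and TTTGGCGC were in 1.86% of windows on either strand and in none of the 8 member windows. CCAAT was found 2 times before Cdkn1b and 1 time in a Ccnd3 window (33.8% of all windows held it), and TATAAA 1 time before Cdk6 (12.4%). These are matches of letters and not binding sites.

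The D-type cyclins differed from each other in level far more than between the diets. Levels are given as CPM (counts scaled to a common library total) per kilobase of a gene's merged exons. On this scale Ccnd2 had a median level of 63.1 over the 10 mice, Ccnd1 of 28.0 and Ccnd3 of 11.3. Ccnd2 made up between 61.2% and 65.5% of the summed D-type cyclin level on the control diet and between 59.7% and 61.5% on the ketogenic diet. The share of Ccnd1 lay between 23.1% and 28.6% and between 27.9% and 29.0% in the same order, and the share of Ccnd3 between 9.63% and 12.6% and between 9.59% and 11.4%. On the deposited RPKM, whose gene lengths differ from the merged exon lengths, the share of Ccnd1 ranged from 31.9% to 38.4% on the control diet and from 37.7% to 38.9% on the ketogenic diet. Ccnd2 lay nearest of the 3 to the ceiling of the files described below, at 36.9% of the possible read starts on its merged exons. Ccnd1 was at 15.9% and Ccnd3 at 6.43%, and the part of this ceiling in the shares was not tested.

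Ccnd1 (ENSMUSG00000070348.4, chromosome 7 from 144929931 to 144939925) encodes cyclin D1, a major link from growth factor signalling to RB1. Its normalized counts were 1779, 1293, 1215, 1312 and 1439 in control mice 1 to 5. On the ketogenic diet they were 1758, 1534, 1578, 1523 and 1578. Control mouse 1 was the highest of all 10, and the other 4 control mice were below every ketogenic mouse. The means were 1408 ± 223 (SD, n = 5 mice) on the control diet and 1594 ± 95.1 (SD, n = 5) on the ketogenic diet. In the edgeR fit the log2 fold change was 0.18 (SE 0.0904, 95% interval −0.017 to 0.38, unadjusted p = 0.0697, adjusted p = 0.322, edgeR). By exact permutation, p was 0.0952. Without control mouse 1, the log2 fold change was 0.28 (SE 0.0594, unadjusted p = 6.55e-04, adjusted p = 0.0700, edgeR). With each other mouse left out in turn, it lay between 0.13 and 0.20, with adjusted p-values from 0.297 to 0.501. The gene overlaps LTO1 on the other strand, which held between 1072 and 1573 reads per mouse.

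Ccnd2 (ENSMUSG00000000184.12, chromosome 6 from 127125162 to 127152193) encodes cyclin D2. Its normalized counts were 7608, 7048, 6883, 7052 and 6978 in control mice 1 to 5 and 7251, 6691, 6730.0, 6450.1 and 6807 in ketogenic mice 1 to 5. Of the ketogenic mice, 4 were below every control mouse, and mouse 1 lay inside the control range. Its log2 fold change was −0.068 (SE 0.0363, 95% interval −0.15 to 0.011, unadjusted p = 0.0856, adjusted p = 0.354, edgeR), with an exact permutation p of 0.119. This permutation p was 0.0397 with upper quartile factors, 0.143 with DESeq2 size factors, 0.167 with total counts and 0.151 with the start correction described for Cdkn1a. With the cardiomyocyte score in the fit, the sign turned, to 0.0071 (SE 0.0418, edgeR adjusted p = 0.964). The mean count used 36.9% of the possible read starts on its merged exons, 1 per base and strand.

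Ccnd3 (ENSMUSG00000034165.16, chromosome 17 from 47505051 to 47599691), the gene of cyclin D3, had normalized counts of 1176, 1300.5, 1120.0, 1201 and 979.6 on the control diet. On the ketogenic diet they were 1287, 1137, 986, 939 and 1159. The ranges overlapped almost wholly, with 1 ketogenic mouse below the lowest control. For Ccnd3 the log2 fold change was −0.069 (SE 0.0929, 95% interval −0.27 to 0.13, unadjusted p = 0.471, adjusted p = 0.736, edgeR) and the exact permutation p 0.492. The sign turned once the cardiomyocyte marker score entered the fit, to 0.15 (SE 0.0934, edgeR adjusted p = 0.583). It overlaps Bysl on the other strand.

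**Figure D1:**
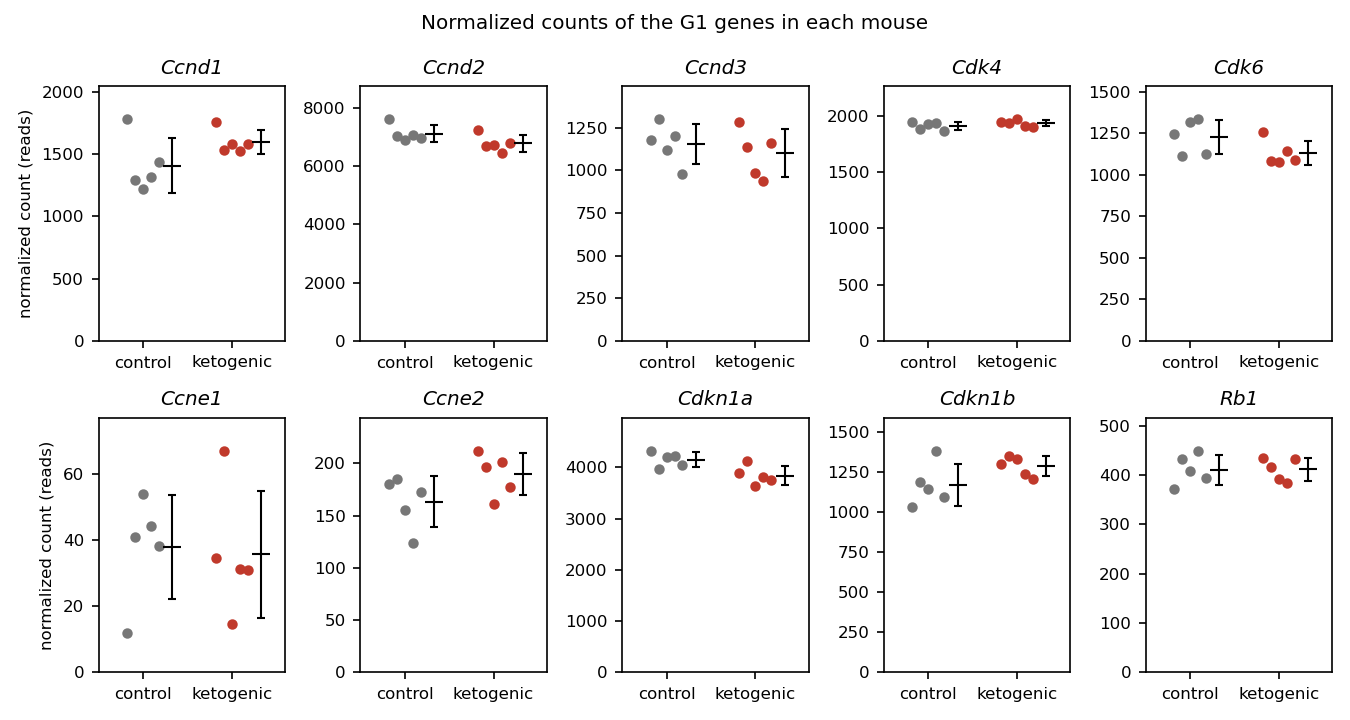
Normalized counts (reads, linear axis from 0) of the 10 G1 genes in each mouse, control diet in grey and ketogenic diet in red, with the mean and SD of 5 mice in black. Cdkn1a has 4 ketogenic mice below the lowest control mouse (3970.0), and 4 control mice of Ccnd1 are below the lowest ketogenic mouse (1523).

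Cdk4 was by far the more abundant of the D-type kinases and varied least between mice among the 10 genes. Its mean count used 46.8% of the possible read starts on its longest transcript and 29.6% on its merged exons, and their part in this small spread was not tested. The median level of Cdk4 was 50.8 CPM per kilobase, against 6.97 for Cdk6, so that it made up between 86.2% and 88.7% of their sum in every mouse. On the deposited RPKM this share lay between 76.5% and 80.3%. Cdk6 used 4.20% of the starts on its merged exons, and the part of read starts in these shares was not tested. Cdk4 (ENSMUSG00000006728.12, chromosome 10 from 127063534 to 127067920) had normalized counts of 1944, 1878, 1927, 1938 and 1863 on the control diet. Those on the ketogenic diet were 1944, 1938, 1968, 1911 and 1899.8. All 10 values fell between 1863 and 1968. Between the diets the log2 fold change was 0.017 (SE 0.0298, 95% interval −0.048 to 0.082, unadjusted p = 0.587, adjusted p = 0.81, edgeR), and the interval spans changes from −3.29% to 5.81%. The exact permutation p was 0.31. The gene overlaps Tspan31 on the other strand.

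Cdk6 (ENSMUSG00000040274.11, chromosome 5 from 3341485 to 3531008), the second D-type kinase, had normalized counts of 1245, 1115, 1315, 1334 and 1126 in control mice 1 to 5. In ketogenic mice 1 to 5 they were 1256, 1084, 1079, 1142 and 1091. Of the ketogenic mice, 3 were below every control mouse and none was above the highest. Cdk6 had a log2 fold change of −0.12 (SE 0.0648, 95% interval −0.26 to 0.023, unadjusted p = 0.0938, adjusted p = 0.368, edgeR) and an exact permutation p of 0.103.

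The E-type cyclins activate CDK2 at the end of G1 and were the scarcest members. Ccne2 had a median level of 4.39 CPM per kilobase and Ccne1 of 1.17, and Ccne2 made up between 68.2% and 92.0% of their sum. On the deposited RPKM its share lay between 57.2% and 87.8%. Ccne2 (ENSMUSG00000028212.16, chromosome 4 from 11191351 to 11204779) had normalized counts of 180.4, 185, 155, 124 and 173 on the control diet and 212, 197, 161, 201 and 178 on the ketogenic diet. Of the ketogenic mice, 3 were above every control mouse, and the other two lay inside the control range. Ccne2 had a log2 fold change of 0.21 (SE 0.123, 95% interval −0.056 to 0.48, unadjusted p = 0.11, adjusted p = 0.394, edgeR) and an exact permutation p of 0.119. Once the cardiomyocyte marker score entered the fit, it was 0.43 (SE 0.155, unadjusted p = 0.0174, adjusted p = 0.314, edgeR). Without control mouse 4, it was 0.13 (SE 0.108, unadjusted p = 0.254, adjusted p = 0.575, edgeR). On the other strand, Ints8 overlaps Ccne2 and held between 211 and 315 reads per mouse, against 118 to 215 on Ccne2.

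Ccne1 (ENSMUSG00000002068.16, chromosome 7 from 38097984 to 38107534) had between 11 and 64 reads per mouse. Its normalized counts were 11.9, 41, 53.8, 44.2 and 38.2 on the control diet and 34.5, 66.9, 14.7, 31.1 and 31 on the ketogenic diet. Control mouse 1 and ketogenic mouse 3 were far below the other mice of their diet, and ketogenic mouse 2 was the highest of all. The log2 fold change was −0.092 (SE 0.402, 95% interval −0.97 to 0.78, unadjusted p = 0.822, adjusted p = 0.93, edgeR) and the exact permutation p 0.841. At this depth the interval runs from −48.9% to 72.2%, so that a difference within it, in either direction, is not excluded. The direction turned with control mouse 3 or ketogenic mouse 3 left out, to 0.067 and 0.11.

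**Figure D2:**
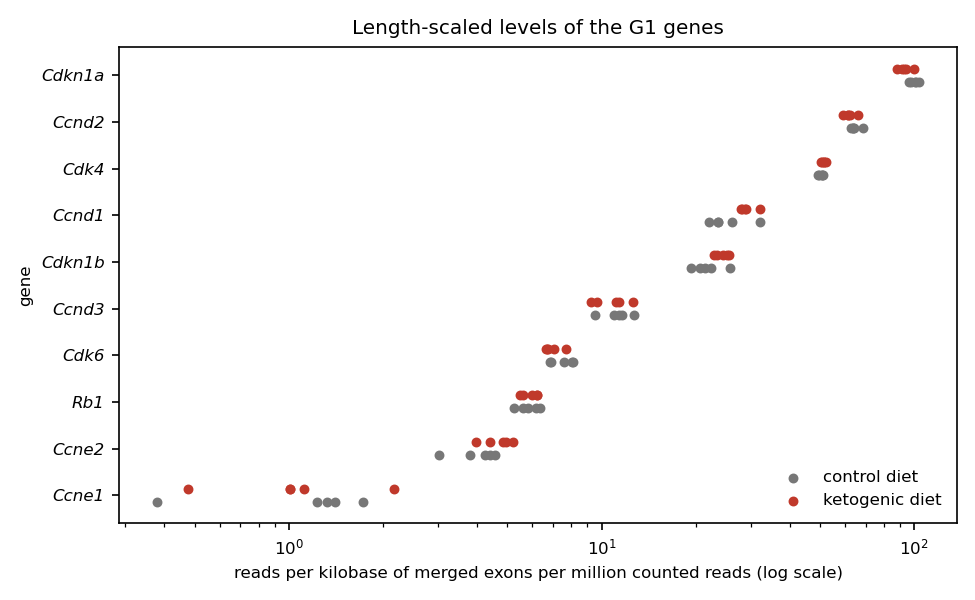
CPM per kilobase of merged exons (log axis) for each G1 gene, 1 point per mouse, control diet in grey and ketogenic diet in red. Median levels run from 1.17 (Ccne1) to 96.7 (Cdkn1a), and the spread between genes is wider than that between diets.

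Cdkn1a (ENSMUSG00000023067.13, chromosome 17 from 29090976 to 29100727), which encodes p21 and is a classic p53 target, held the highest level of the 10 genes, 96.7 CPM per kilobase at the median. Its normalized counts were 4324, 3970.0, 4193, 4219 and 4043 in control mice 1 to 5. In ketogenic mice 1 to 5 they were 3882, 4124, 3631, 3811 and 3749. All ketogenic mice but mouse 2 were below every control mouse, and mouse 2 was within the control range. The means were 4150.1 ± 142 (SD, n = 5 mice) on the control diet and 3839 ± 184 (SD, n = 5) on the ketogenic diet. On the log2 scale the difference was −0.11 (SE 0.038, 95% interval −0.20 to −0.030, unadjusted p = 0.012, adjusted p = 0.155, edgeR). By exact permutation of its values, p was 0.0238. Without ketogenic mouse 2, whose library total of 11108020 was the smallest of its diet, the adjusted p-value was 0.0541 (edgeR, log2 fold change −0.14). Leaving out any other single mouse gave values from −0.12 to −0.087, with adjusted p-values from 0.177 to 0.311.

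The counts of Cdkn1a lay close to a ceiling of the files. Among 3771 genes averaging 1000 reads or more, 3768 had no library with more than 1 read per possible start, counting 2 starts per base of merged exons, and 2 genes had such a library. Cdkn1a had between 3698 and 4164 reads per mouse, on average 56.1% of the starts on its merged exons and 95.8% of those on its longest annotated transcript of 2080 bases. Of 15900 tested genes with a length, 34 were at or above this second share. With counts corrected for reads lost at shared starts, the log2 fold change of Cdkn1a was −0.14 on merged exons (SE 0.0437, unadjusted p = 0.00656, adjusted p = 0.118, edgeR). On the longest transcript it was −0.32 (SE 0.133, unadjusted p = 0.0333, adjusted p = 0.226, edgeR), with the largest count held at 0.99 of the starts. The size of the Cdkn1a difference thus depended on the correction. Counts near such a ceiling need not grow with the library total, whose median was 11285659 on the control diet and 11837379 on the ketogenic diet. Apart from these corrections, the part of library size in the Cdkn1a difference was not tested. The sources used here do not state whether duplicate reads were removed.

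**Figure D3:**
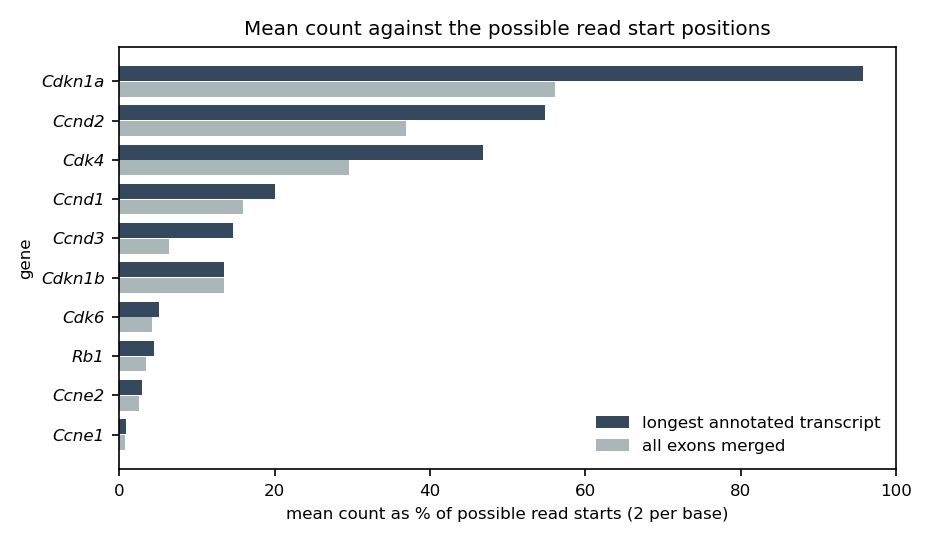
Mean count of each G1 gene over the 10 mice as a percentage of the possible read starts (2 per base, linear axis from 0), on the longest annotated transcript (dark) and on all exons merged (light). Cdkn1a reaches 95.8% and 56.1%, Ccnd2 54.8% and 36.9%, and Ccne1 stays under 1%.

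Cdkn1b (ENSMUSG00000003031.14, chromosome 6 from 134920401 to 134925513) encodes p27, an inhibitor that is high in resting cells. It had a median level of 23.1 CPM per kilobase, and Cdkn1a made up between 77.8% and 84.3% of the sum of both. On the deposited RPKM, Cdkn1a made up between 87.1% and 91.2%. Both shares rest on Cdkn1a counts near the ceiling of read starts. The Cdkn1b counts used 13.5% of the starts on its longest transcript. Its normalized counts were 1033, 1188, 1139.7, 1380.2 and 1095 on the control diet. On the ketogenic diet they were 1297, 1349.7, 1329, 1234 and 1204. Control mouse 4 was the highest of all 10, and the other 4 control mice were below every ketogenic mouse. Cdkn1b had a log2 fold change of 0.14 (SE 0.0711, 95% interval −0.019 to 0.29, unadjusted p = 0.0803, adjusted p = 0.345, edgeR) and an exact permutation p of 0.111. Without control mouse 4, it was 0.20 (unadjusted p = 0.0034, adjusted p = 0.103, edgeR), and without any other single mouse between 0.095 and 0.16. With the cardiomyocyte score in the fit, it was 0.089 (SE 0.101, unadjusted p = 0.395, adjusted p = 0.771, edgeR). The 2 inhibitors thus had log2 fold changes of opposite sign, neither past the adjusted threshold.

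Rb1 (ENSMUSG00000022105.6, chromosome 14 from 73183673 to 73325822), whose protein is the substrate of the D-type kinases, had normalized counts of 372, 432, 408, 449.5 and 395 on the control diet and 434, 417, 393, 384 and 432 on the ketogenic diet. The ketogenic values lay inside the control range. Rb1's log2 fold change was 0.0024 (SE 0.0711, 95% interval −0.15 to 0.16, unadjusted p = 0.973, adjusted p = 0.99, edgeR) and the exact permutation p 0.984. Its sign turned in 10 of 22 alternatives, whose values lay between −0.031 and 0.054. The interval spans changes from −10.0% to 11.5%. On the other strand the gene overlaps Lpar6, with between 2413 and 2858 reads per mouse, and Rcbtb2, with between 784 and 1175. Rb1 itself had 344 to 474, and the kit does not record strand.

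**Figure D4:**
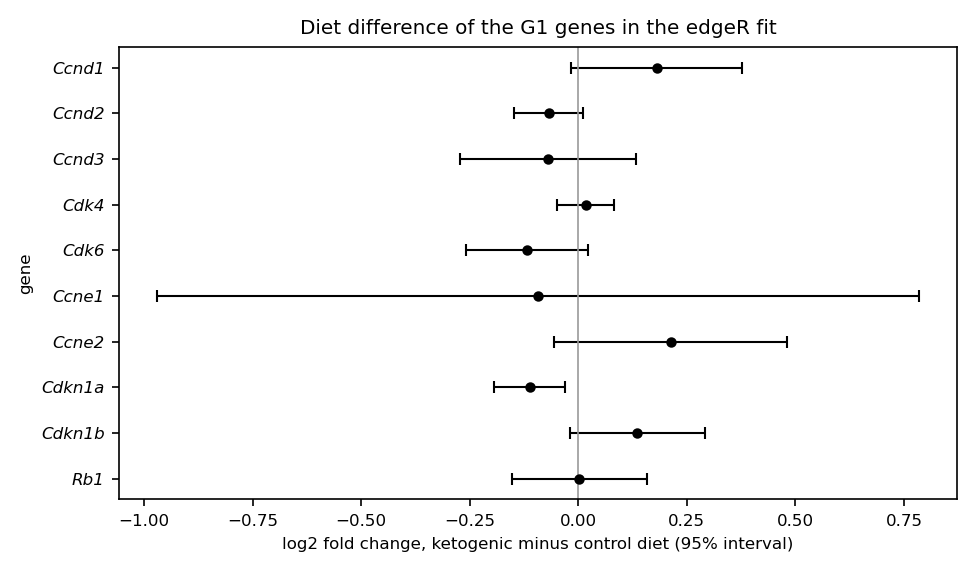
Log2 fold change of each G1 gene, ketogenic minus control diet, from the edgeR fit, with its 95% interval. The interval of Cdkn1a ends below 0 (−0.20 to −0.030), the other 9 include 0, and that of Ccne1 is the widest.

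In order of level in CPM per kilobase, Cdkn1a, Ccnd2 and Cdk4 stood apart from their neighbours in all 10 mice. Ccnd1 (22.1 to 32.1) and Cdkn1b (19.3 to 25.7) overlapped, and below them Ccnd3, Cdk6, Rb1, Ccne2 and Ccne1 followed without overlap between neighbours. On the deposited RPKM the medians of Ccnd1 and Cdk4 changed places, 31.3 and 21.6, since the deposited length of Cdk4 was 2.35 times its merged exon length. On that scale Ccnd3 (4.87 to 6.72) overlapped Cdk6 (5.42 to 6.60) and Rb1 (4.45 to 5.37). Ccne2 (1.30 to 2.24) also overlapped Ccne1 (0.26 to 1.49) there. The genes whose log2 CPM ran most like Cdkn1a across the 10 mice were H3f3b, Lrrc75a and Myadm, with Pearson r of 0.978, 0.970 and 0.963. For Ccnd1 they were Zfp710, Ccdc134 and Gm15541, with 0.931, 0.895 and 0.870. These are the 3 highest of 15949 genes for each and a description only.

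Of 83 other genes of G1/S control, 82 were tested, and none passed the adjusted threshold. At an unadjusted p-value under 0.05 there were 16, of which 10 had a positive and 6 a negative log2 fold change, beside 17.8% of all tested genes. The median log2 fold change of the 82 genes was 0.045, against −0.0057 for all tested genes.

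Downstream of the members, 18 of 20 E2F target genes had log2 fold changes above 0, with a median of 0.13, while 7745 of the 15949 tested genes did. The study named E2F targets from these same libraries, so this direction is not independent evidence. An unadjusted p-value under 0.05 (edgeR) was found for 4 of the 20, beside 17.8% of all tested genes. Fbxo5, which encodes the inhibitor EMI1 of the anaphase-promoting complex, had normalized counts of 109, 100.1, 129, 81.1 and 107 on the control diet and 165, 162, 148, 141 and 125 on the ketogenic diet, with 4 of 5 ketogenic mice above every control mouse. Its log2 fold change was 0.49 (SE 0.133, edgeR adjusted p = 0.0882). Rrm1, a subunit of ribonucleotide reductase, had 0.12 (SE 0.0427, edgeR adjusted p = 0.175). Among the 10 E2F and DP factors, E2f6, a repressor, had 0.28 (SE 0.0992, edgeR adjusted p = 0.177). E2f1, an activator that RB1 binds, ranged from 21.1 to 137 on the control diet and from 51.2 to 105 on the ketogenic diet, with a log2 fold change of 0.50 (SE 0.44, edgeR adjusted p = 0.582). Ccna2, the S phase cyclin, had normalized counts of 27, 44.8, 29, 16.8 and 31.2 and then 68.1, 52.3, 16.7, 57.3 and 61 on the ketogenic diet. Ketogenic mouse 3 was below every control mouse and the other 4 were above all of them, and the log2 fold change was 0.77 (SE 0.342, edgeR adjusted p = 0.261). Cdk2, the partner of cyclins E and A, had 0.084 (SE 0.0671, edgeR adjusted p = 0.544).

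The other pocket proteins differed in value. Rbl2, which encodes p130, the pocket protein of resting cells, had normalized counts of 373, 409, 313, 357 and 293 on the control diet and 454, 409.8, 468, 396 and 405 on the ketogenic diet. Its log2 fold change was 0.29 (SE 0.0968, edgeR adjusted p = 0.151), and that of Rbl1, which encodes p107, was 0.044 (SE 0.137, edgeR adjusted p = 0.899). Of the other CDK inhibitors, Cdkn2c, the gene of the CDK4 and CDK6 inhibitor p18, had 319, 298, 394, 356 and 370.1 and then 389.7, 446, 498, 450.0 and 393 reads. Of the 5 ketogenic mice, 3 were above every control mouse, and the log2 fold change was 0.33 (SE 0.0963, edgeR adjusted p = 0.112). With DESeq2, Cdkn2c and Fbxo5 were the 2 pathway genes past the adjusted threshold, beside 5.61% of the genes with an adjusted p-value in that fit. Cdkn2a, at 0 to 7 reads in each library, was left out by the filter on low counts.

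Upstream of the members, 10 of the 11 genes for turnover of cyclins and p27 had log2 fold changes below 0, with a median of −0.059, while 8204 of the 15949 tested genes did. Of these 11 genes, 1 had an unadjusted p-value under 0.05 (edgeR), beside 17.8% of all tested genes. Ambra1, which marks D-type cyclins for degradation, had −0.15 (SE 0.0521, edgeR adjusted p = 0.176). Jun, a factor that can raise Ccnd1, had 3657, 3563, 3659, 3686 and 3643 reads on the control diet and 3369.6, 3625, 3295, 3259.5 and 3316 on the ketogenic diet, with 4 of 5 ketogenic mice below every control mouse. Its log2 fold change was −0.11 (SE 0.0327, edgeR adjusted p = 0.111). In the list of p53 and its target genes, 8 of 15 were above 0 and 7 below. Trp53, the p53 gene, had −0.12 (SE 0.044, edgeR adjusted p = 0.187), and its binding partner Mdm4 had −0.17 (SE 0.05, edgeR adjusted p = 0.111). Trp53inp1, a p53 target, had 0.19 (SE 0.0683, edgeR adjusted p = 0.175). For Trp53, Mdm4 and Jun, as for Cdkn1a, ketogenic mouse 2 was the highest of its diet. Without it the 3 genes passed the adjusted threshold, in a fit where 492 genes did (3.05%). Ketogenic mouse 2 also had the smallest library total of its diet, 11108020 reads. Jun used 54.9% of the read starts on its longest transcript, Trp53 37.4% and Mdm4 10.5%. The part of library size in these values was not tested.

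**Figure D5:**
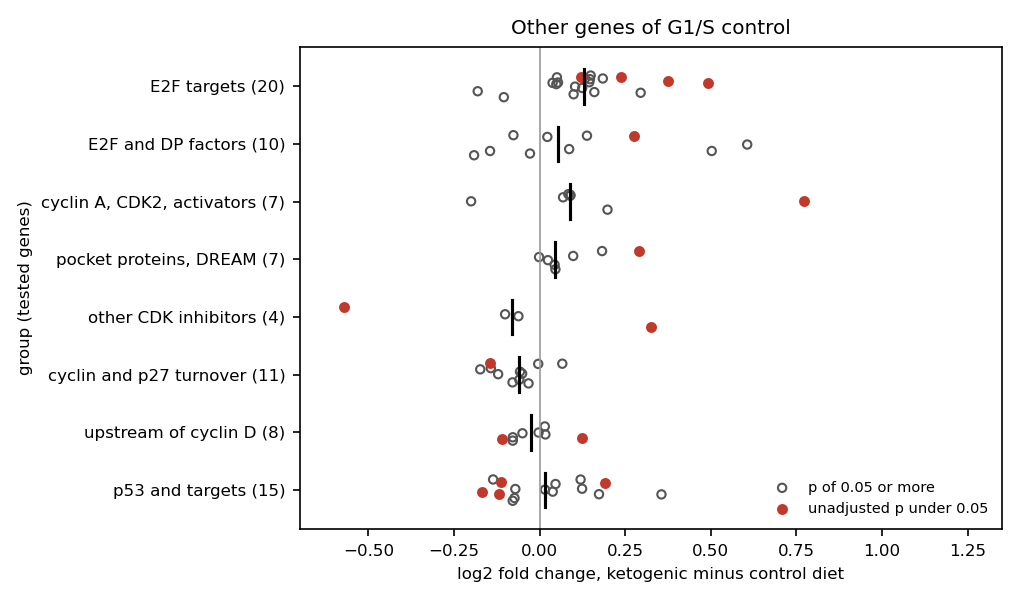
Log2 fold changes (ketogenic minus control diet) of 82 tested genes of G1/S control by group, 1 point per gene, with the group's median as a black bar and genes with an unadjusted p-value under 0.05 filled red. E2F targets have a median of 0.13, and the genes for cyclin and p27 turnover one of −0.059.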

How the data were processed

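Cardiac CD31+ cells of 10 mice were sequenced as single reads after SMART-Seq v4 amplification, which does not record strand. The authors deposited raw counts per gene, on mm10, and RPKM values that are the same counts scaled by a gene length and the library total. The submitters' processing notes name bcl2fastq 2.17.1.14, STAR 2.3 and HTSeq 0.6.0. How duplicate reads were handled is not given in the sources used here.

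Symbols and positions came from GENCODE M21 on GRCm38, where 46488 of 46983 identifiers were found without regard to version. Counts were tested with edgeR 4.0.16 (TMM, filterByExpr, quasi-likelihood F-test, Benjamini-Hochberg) in R 4.3.3, with 5 mice a diet. The SE of a fold change is its size over the root of its F statistic. The scripts were tested on simulated data. Alternatives were other size factors and filters, DESeq2 1.42.0, limma 3.58.1 on log2(RPKM + 1) and log2(RPKM + 0.1), a replicate block, a cardiomyocyte score covariate (the mean z-score of 8 markers) and each mouse left out. Corrections for read start positions, −2L ln(1 − count/2L) with L the gene's length, and permutation tests under other size factors were chosen after seeing the data.

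Named were all members, the 10 pathway genes with the smallest p-values, and Cdk2, Ccna2, Rbl1, Rbl2 and E2f1. Any other gene was chosen after its values were seen. The members and lists were chosen with earlier results of these data known, and the study itself named E2F targets from them. Libraries of 1 diet differed by more than sampling noise, with chi-square of 4.33 to 9.11 per degree of freedom.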

Additional observations from a re-analysis of the deposited data

Results flagged for a closer look

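In 22 groups of 5 mice, the normalized counts of the 10 genes and the total count in each diet, the gap of the farthest mouse to its nearest neighbour was divided by the range of the group. It passed the critical ratio of 0.71 in 2 groups, and chance gives about 1 in 20. For Ccnd1, ketogenic mouse 1 was the highest of its diet, 1758 against 1578 in the next mouse (ratio 0.765). For Ccnd2, control mouse 1 was the highest of its diet, 7608 against 7052 (ratio 0.766).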

How the results depend on the processing

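In no alternative did any of the 10 genes pass an adjusted p-value of 0.05. Of 220 alternative log2 fold changes, 206 kept their sign. Rb1 turned to −0.013 with upper quartile factors, −9.11e-04 with at least 10 counts in every mouse, −0.0033 and −0.0063 with start corrections on merged exons and the longest transcript, and lay between −0.031 and 0.037 with single mice left out. Its permutation p was then 0.849 with upper quartile factors and 0.968 with the start correction. Ccne1 turned to 0.067 without control mouse 3 and 0.11 without ketogenic mouse 3, within a range from −0.44 to 0.11. With the cardiomyocyte score, in a fit where 21 genes were called against 213, Ccnd2 turned to 0.0071 and Ccnd3 to 0.15. The cause was not tested. With mice left out in turn, Ccnd1 lay between 0.13 and 0.28, Ccne2 between 0.13 and 0.27, Cdkn1a between −0.14 and −0.087 and Cdkn1b between 0.095 and 0.20. Pathway genes past the threshold numbered 2 with DESeq2, beside 5.61% of the genes with an adjusted p-value in that fit. With mice left out they numbered between 0 and 3, the 3 without ketogenic mouse 2 (beside 3.05% of all tested genes). With the replicate number as a block, 0 of the 10 and 0 pathway genes passed, and Ccnd1 had 0.19 (unadjusted p = 0.0121, adjusted p = 0.172 from edgeR), while over all genes 113 were called against 213. After the diet means were taken out, correlations of same-numbered mice lay between −0.13 and 0.094. Of the control mice, 0 of 5 correlated best with its own number. Such correlations cannot exclude a weak effect shared by mice of the same number, so pairing was not settled.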

Other observations

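Beside Cdkn1a, 3 other early-response genes of the fixed lists, chosen after their values were seen, had counts near 1 read per possible start. Fos had between 4250 and 4369 reads per mouse, Plk2 between 5455 and 5566, and Btg2 between 5199 and 5344, on 102%, 98.5% and 95.9% of the starts of their longest transcripts. In the same mice the library totals ran from 10885154 to 12710861. The log2 fold changes of Fos, Plk2 and Btg2 were −0.078, −0.078 and −0.073 (edgeR), none past the adjusted threshold. More than 50% of the starts of the longest transcript were used by 837 of 15900 tested genes. Of the genes most like Cdkn1a across mice, Myadm used 71.5% and H3f3b 40.9% of these starts, and Lrrc75a 3.13%.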
